A study of Mus musculus with 51 samples.

Results

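The Rab family of vesicle traffic was examined in captured regions of the mouse cochlea, as 58 of the 6248 genes measured. A gene was a member where its symbol was Rab followed by a digit, or began with Rabgap, Rabgef, Rabep, Rabac, Rabif or Rabggt. In RefSeq's GRCm38.p6 annotation 79 protein-coding symbols met this rule, and 58 of them had a row in the files. By textbook role the members fell into 6 secretory Rabs, 4 regulators named for Rab3, 11 Rabs of the ER and Golgi, 12 genes of the early endosome and 9 of recycling and exocytosis. The remaining members were 4 genes of the late endosome and lysosome, 6 general cofactors and 6 genes of the cilium or of other roles. The last group holds Rab5if, which the rule takes by its name although it encodes no GTPase.

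Rab proteins are small GTPases that switch between a GDP-bound form held in the cytosol and a GTP-bound form on membranes. Each marks a compartment or a transport step and recruits the motors, tethers and fusion factors that act there. Exchange factors load GTP, GTPase-activating proteins return the Rab to its GDP form, and GDP dissociation inhibitors extract that form from the membrane. In neurons Rab3 proteins sit on synaptic vesicles, while Rab5, Rab7 and Rab11 proteins serve endocytic, degradative and recycling traffic in axons and cell bodies.

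All animals were male CBA/CaJ mice of 16 weeks, with 5 animals per treatment and no engineered allele named. Exposed animals had received broadband noise at 100 dB SPL for 2 h, and control animals a mock exposure. On the time of collection the labels differ, since sample titles add 4 h to the exposure and the design text has the animals killed directly afterwards. The 50 regions used, from fresh-frozen sections of 6 µm, were 16 mock neuron, 12 noise neuron, 14 mock supporting-cell and 8 noise supporting-cell regions. Noise neuron replicate 6 was left out because all its values were equal. No label ties a region to an animal, and each group held more regions than animals. Some regions must therefore come from the same animal, which makes the p-values below, all taken over regions, too small. All mock regions came from areas of one name series and all noise regions from another, so treatment and the section or slide behind these names cannot be told apart.

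The promoters of some members that differed between region types under mock are shown first, with that of Rab6a, the close relative of Rab6b. Those of Rab7, Rab4a and Rab42, which also differed, are not shown. Each line gives the 250 bases before a RefSeq start in GRCm38.p6, 5′ to 3′ on the gene's strand. Rab3a is at chr8:70754453-70754702 on the plus strand, for 1 of its 2 listed starts. Rab3ip is at chr10:116950454-116950703 on the minus strand, Rab6b at chr9:103111824-103112073 on the plus strand and Rab6a at chr7:100607336-100607585 on the plus strand. Rab11a is at chr9:64737757-64738006 and Rab11fip5 at chr6:85374635-85374884, both on the minus strand. Capitals mark the GC box GGGCGG, the CCAAT box and the cAMP element core TGACG on either strand.
Rab3a: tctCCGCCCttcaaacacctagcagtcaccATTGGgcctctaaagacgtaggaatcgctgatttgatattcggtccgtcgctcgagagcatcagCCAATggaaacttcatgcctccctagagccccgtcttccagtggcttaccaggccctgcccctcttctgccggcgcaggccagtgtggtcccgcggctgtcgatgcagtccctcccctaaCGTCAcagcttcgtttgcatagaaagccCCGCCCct
Rab3ip: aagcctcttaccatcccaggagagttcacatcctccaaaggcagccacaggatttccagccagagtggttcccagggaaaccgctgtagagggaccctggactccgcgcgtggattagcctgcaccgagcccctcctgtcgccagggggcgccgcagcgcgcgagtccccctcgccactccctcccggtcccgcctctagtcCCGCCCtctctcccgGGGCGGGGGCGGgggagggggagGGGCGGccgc
Rab6b: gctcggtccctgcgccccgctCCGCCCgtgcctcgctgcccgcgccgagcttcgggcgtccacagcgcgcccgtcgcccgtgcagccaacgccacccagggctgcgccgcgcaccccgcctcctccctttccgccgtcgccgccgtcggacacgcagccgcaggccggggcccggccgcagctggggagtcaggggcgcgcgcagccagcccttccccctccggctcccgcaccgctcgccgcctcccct
Rab6a: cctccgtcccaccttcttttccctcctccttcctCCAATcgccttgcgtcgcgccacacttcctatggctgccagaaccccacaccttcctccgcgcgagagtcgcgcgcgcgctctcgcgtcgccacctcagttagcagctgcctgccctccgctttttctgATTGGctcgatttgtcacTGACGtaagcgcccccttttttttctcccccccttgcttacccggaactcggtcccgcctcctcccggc
Rab11a: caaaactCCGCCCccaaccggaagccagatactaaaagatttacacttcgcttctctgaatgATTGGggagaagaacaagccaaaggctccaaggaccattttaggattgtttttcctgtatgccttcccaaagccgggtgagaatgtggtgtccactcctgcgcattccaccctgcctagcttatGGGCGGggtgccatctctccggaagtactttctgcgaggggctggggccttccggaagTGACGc
Rab11fip5: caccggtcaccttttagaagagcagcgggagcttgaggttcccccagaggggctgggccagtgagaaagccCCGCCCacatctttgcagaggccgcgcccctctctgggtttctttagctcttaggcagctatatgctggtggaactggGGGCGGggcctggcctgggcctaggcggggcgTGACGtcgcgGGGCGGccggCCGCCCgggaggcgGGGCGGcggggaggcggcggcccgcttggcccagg

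The letters of these promoters differed between close relatives. The Rab6b window was 80.8% G and C with 1 GC box and no CCAAT box, and the Rab6a window 62.8% with no GC box, 2 CCAAT boxes and 1 TGACG. The windows of Rab3ip and Rab11fip5 held 4 and 5 GC boxes. Of the 58 members 50 had an entry in the promoter table, with 65 promoters, whose median G and C content was 62% against 52.4% over all 32851 promoters. GGGCGG was found in 70.8% of member promoters and 32.7% of all, and CCAAT in 41.5% and 33.8%. TGACG was found in 41.5% of member promoters and 17.8% of all. The TATAAA box was in 6.15% of member promoters, those of Rab39b, Rab3b, Rab42 and Rab7, and in 12.4% of all. The lysosomal CLEAR element was in the promoters of Rab21 and Rab5a, 3.08% of member promoters against 0.240% of all. The heat shock element was in 0 of 65 member promoters and 0.466% of all. Members and other genes differ in base composition, and a match is a description of letters and no evidence of binding.

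Members were read at very low depth. The signal had been scaled by the authors to a common upper quartile of 3.12 per region, and 1 read was worth 0.208 to 1.56 of signal depending on the region. Region totals ran from 10147 to 88156 reads in the neuron groups and from 9607 to 25605 in the supporting-cell groups. Members made up a median of 0.802% of reads in mock neurons and 0.820% in neurons after noise, and 0.859% and 0.851% in the 2 supporting-cell groups. In the same order the typical member had a median of 2.5, 3, 1.25 and 2 reads per region. The median was 1 read, the lowest listed value, for 5, 0, 29 and 5 of the 58 members. Whether this floor also stands for genes with 0 reads cannot be told. Read totals and shares therefore count each floor entry as 1 read. In the same order a median of 31.3%, 19.2%, 51.6% and 35.4% of all genes were at the floor. In noise neuron replicate 6, with every gene at the floor, the members' share was 0.928%. Neuron markers (9 of 12 listed had a row) summed to a median of 238 in mock and 188 in noise neurons, and to 65.6 in mock and 77.6 in noise supporting cells. Schwann and satellite glia markers (10 of 12) summed to 45.2, 28.8, 131 and 67.3. The regions labelled supporting cells thus carried the glial list. Of 9 markers of organ of Corti supporting cells only Sox2 and Sparcl1 had a row, with Sox2 at 1.66 ± 0.704 (SD, n = 14) in mock supporting cells and Sparcl1 higher in neuron regions. In such bulk regions fewer cells of a type and less RNA per cell cannot be told apart.

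Few members stood above background. Olfactory receptor probes, for receptors of the nose, served as background, and a member was above it where its group mean of log2 values passed their 95th percentile. By this measure 16 members (27.6%) were above background in mock neurons, and after noise 9 (15.5%) were in neurons. In supporting cells 3 members (5.17%) were above it under mock and 1 (1.72%) after noise. The same shares over all 5680 genes other than olfactory receptors, members included, were 31.4%, 16.8%, 11.9% and 7.02%. Rab14, which serves traffic between the trans-Golgi network and endosomes, was above background in all 4 groups, and Rab11a in 3. The other members above background in both neuron groups were Rab3a, Rab3ip, Rab3gap1, Rab6b, Rab5b, Rabep1 and Rab11fip5. A total of 42 members were above it in 0 groups, and for these the values below are no measure of a level. Rab27b, Rab3d, Rabgap1l, Rabgef1 and Rabggta were among them, each with a median of at most 3 reads in every group.

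**Figure D1:**
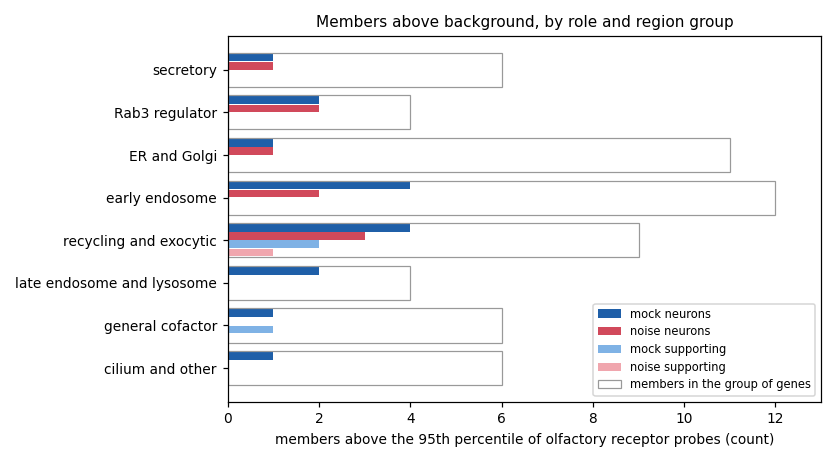
Members above the 95th percentile of olfactory receptor probes, as counts on the x axis, by role and region group; the open bars give the number of members in each role. Filled bars are longest in mock neurons, with 4 of 9 recycling and 4 of 12 early endosome genes, and 1 gene, Rab14, is above background in noise supporting cells. The percentile was taken within each group and was lowest in mock neurons.

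The main contrast among members was between region types, which were compared first under mock exposure. Of 58 members 42 passed the filter on low values, and region type made a difference to 8 of them (limma, Benjamini-Hochberg adjusted p below 0.05, p-values over regions too small). Members were called in 19.0% of cases, against 20.0% of the 4686 genes tested. At an unadjusted p below 0.05 the counts were 11 of 42 members and 32.1% of all genes. The 7 members higher in neurons were Rab11fip5, Rab3ip, Rab6b, Rab3a, Rab11a, Rab7 and Rab4a, and 13.8% of all genes were higher. The 1 member lower in neurons was Rab42, and 6.19% of all genes were lower. The family's share of calls was near that of all genes, so these counts say nothing particular about the family. Among the 527 genes tested whose symbols begin with R, as all members do, 26 were higher and 27 lower. The median log2 fold change was -0.07 over the members tested and -0.05 over all genes tested, with 18 members above 0 and 24 below. The filter used the mean over all regions, 28 neuron and 22 supporting-cell. It therefore drops low genes that are higher in supporting cells more readily, and this shapes the counts in each direction, for members and all genes alike. All fold changes were computed as log2(value + 1), so that those of low genes come out too small.

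**Figure D2:**
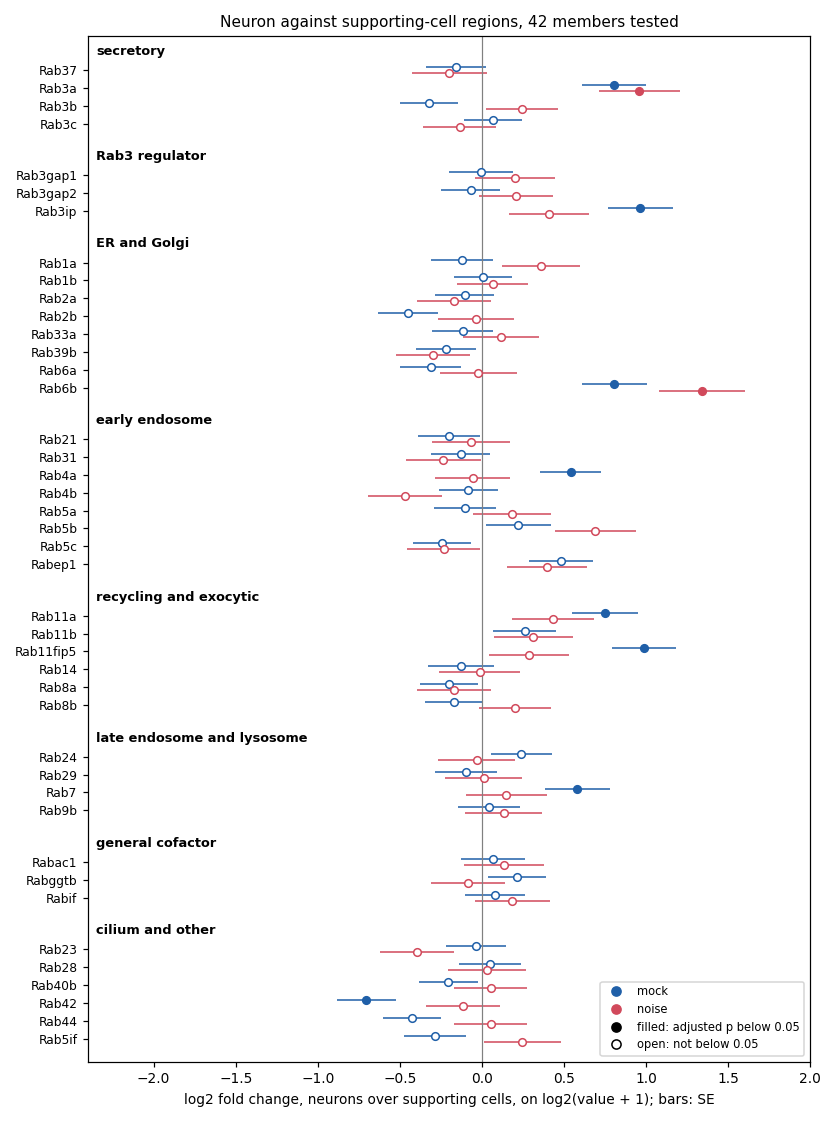
Log2 fold change of neuron over supporting-cell regions for the 42 members tested, by role, under mock (blue) and after noise (red), on the log2(value + 1) scale with SE bars; filled points have an adjusted p below 0.05. In mock regions 8 points are filled, from Rab42 at -0.71 to Rab11fip5 at 0.99, and after noise Rab3a at 0.96 and Rab6b at 1.34.

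Among the secretory Rabs only Rab3a, the Rab of synaptic vesicles, differed by region type among the 4 tested. Its signal ran from 1.56 to 7.80 with a median of 5.27 in mock neurons and from 1.04 to 5.20 with a median of 1.82 in mock supporting cells. After noise it ran from 3.12 to 6.68 (median 4.16) in neurons and from 0.780 to 4.99 (median 1.30) in supporting cells. The groups overlapped, though 14 of 16 mock neuron regions and all 12 noise neuron regions lay above the mean of the supporting cells of the same treatment. The log2 fold change was 0.80 (SE 0.20, adjusted p 0.000598, limma) under mock and 0.96 (SE 0.25, adjusted p 0.00301) after noise. In areas that held both region types, Rab3a was higher in the neuron region in 10 and lower in 3 of 14 mock areas, and higher in 6 and lower in 1 of 7 noise areas. The paralogs Rab3b and Rab3c were at medians of 0.988 and 1.56 in mock neurons and 1.56 and 1.56 in mock supporting cells, with adjusted p 0.188 for Rab3b, and the difference between paralogs was not tested. On reads (edgeR) the call after noise was lost, at an adjusted p of 0.0827.

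Of the regulators named for Rab3, Rab3ip differed. It encodes Rabin8, an exchange factor that loads GTP on Rab8. In mock neurons its signal was between 3.12 and 7.80 with a median of 4.42, and in mock supporting cells between 1.04 and 4.68 with a median of 1.56. The mean of mock supporting cells was exceeded in all 16 mock neuron regions, and their highest region in 6. The log2 fold change was 0.97 (SE 0.20, adjusted p 1.49e-05). After noise the medians were 4.31 in neurons and 2.21 in supporting cells, and the fold change of 0.41 did not pass (adjusted p 0.370). Rab3gap1 and Rab3gap2, the subunits of the GTPase-activating complex of Rab3, had values of -0.01 and -0.07 under mock. Rab3gap1 was above background in the neuron groups without a call by region type. Its mean log2 value was 1.87 in mock neurons and in mock supporting cells, where the background cut-offs were 1.74 and 1.98.

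Of the Golgi Rabs, Rab6b was higher in neurons, and its paralog Rab6a, above background in 0 groups, was not called. Rab6a and Rab6b both act in transport from and to the Golgi, and Rab6b is known as the form enriched in nervous tissue. Rab6b ran from 1.56 to 9.98 (median 5.59) in mock neurons and from 1.56 to 6.24 (median 2.29) in mock supporting cells. After noise it ran from 4.16 to 8.58 (median 5.58) in neurons and from 0.780 to 4.16 (median 1.25) in the 7 supporting-cell regions with a value. In 11 of 12 noise neuron regions Rab6b was above every noise supporting-cell region, and the remaining region equalled the highest of them. The log2 fold change was 0.81 (SE 0.20, adjusted p 0.000676) under mock and 1.34 (SE 0.26, adjusted p 2.10e-05) after noise. Within areas Rab6b was higher in the neuron region in 13 and lower in 0 of 14 mock areas, and higher in all 6 noise areas with a value in both. Rab6a had medians of 2.08 in mock neurons and 2.34 in mock supporting cells, with a fold change of -0.31 (adjusted p 0.240), and its areas split into 6 higher and 6 lower. The difference between Rab6a and Rab6b was not tested. With the mean of olfactory receptor probes as a covariate the mock value of Rab6b was 0.58 and did not pass (adjusted p 0.217), while after noise it passed in all 11 settings in which it could be fitted, with an adjusted p of at most 0.000580.

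The other ER and Golgi Rabs tested showed no call by region type. Rab1a and Rab2a, which act between the ER and the Golgi, were at medians of 2.08 and 1.56 in mock neurons and 2.60 and 1.82 in mock supporting cells. Rab33a, a Golgi Rab of neurons and immune cells, was at a median of 1.56 in both. Rab2b was at 1.56 in mock neurons and 3.12 in mock supporting cells, with a log2 fold change of -0.45 that did not pass (adjusted p 0.0657). It passed without mock neuron replicate 3 or 12 or mock supporting replicate 1, 2, 13 or 14 (adjusted p down to 0.0354). Of the 8 tested members of this role 2 had a positive and 6 a negative fold change under mock.

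On the recycling route Rab11a and its effector Rab11fip5 were higher in mock neurons. Rab11a, the Rab of recycling endosomes, ran from 2.60 to 12.5 (median 5.59) in mock neurons and from 1.04 to 7.80 (median 3.12) in mock supporting cells, which gave a log2 difference of 0.75 (SE 0.20, adjusted p 0.00201). Rab11fip5, known as Rip11, ran from 1.56 to 6.24 (median 5.33) and from 1.04 to 4.68 (median 1.56), a fold change of 0.99 (SE 0.20, adjusted p 7.76e-06). For Rab11fip5 10 of 16 mock neuron regions lay above the highest supporting-cell region, and for Rab11a 2 did. Within mock areas Rab11a was higher in the neuron region in 13 of 14 and Rab11fip5 in 12 of 14. After noise neither passed, with fold changes of 0.43 (adjusted p 0.347) and 0.29 (adjusted p 0.570), and Rab11fip5 in noise neurons spread from 0.520 to 6.93. Rab11b, the paralog of Rab11a, had a mock value of 3.12 in neurons and 2.34 in supporting cells as medians and was not called. Rab14 was at medians of 3.12 and 4.16, with a fold change of -0.13 and a 95% interval from -0.52 to 0.26.

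Among endosomal members Rab4a and Rab7 were called and Rab5 paralogs were not. Rab4a, which returns cargo rapidly from early endosomes, ran from 0.891 to 6.24 (median 2.86) in mock neurons and from 0.624 to 4.68 (median 1.56) in mock supporting cells, which gave a log2 difference of 0.54 (SE 0.18, adjusted p 0.0210). Rab7, which drives late endosomes to lysosomes, ran from 1.56 to 10.4 (median 4.42) and from 0.624 to 7.80 (median 2.60), a fold change of 0.58 (SE 0.20, adjusted p 0.0201). Both groups of values overlapped widely. Rab4a and Rab7 were above background in mock neurons and in no other group. Both calls were lost with median centring (adjusted p 0.0910 for Rab4a and 0.0744 for Rab7) and on reads with edgeR (0.125 and 0.0965). Without mock neuron replicate 3 Rab4a did not pass (adjusted p 0.0514). Without mock neuron replicate 7, mock supporting replicate 9 or mock supporting replicate 12 Rab7 did not (0.0511, 0.0687 and 0.0520). Rabep1, known as Rabaptin-5 and an effector of Rab5, had medians of 3.90 in mock neurons and 1.82 in mock supporting cells and missed the threshold (0.48, adjusted p 0.0608), passing without mock neuron replicate 4, 7 or 9 or mock supporting replicate 1 or 8 (down to 0.0230). Rab5a and Rab5c had fold changes of -0.11 and -0.24 under mock. Rab5b after noise was at medians of 4.05 in neurons and 1.95 in supporting cells, with a fold change of 0.69 that missed the threshold (adjusted p 0.0566). It passed without noise neuron replicate 2, 5, 9 or 10 or noise supporting replicate 2, 3 or 6 (down to 0.0221).

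Rab42, a little-studied Rab, was the member lower in mock neurons. It ran from 0.520 to 3.12 (median 1.14) in mock neurons and from 1.56 to 7.28 (median 2.08) in mock supporting cells, and 14 of 16 neuron regions were under the mean of supporting cells. The log2 fold change was -0.71 (SE 0.18, adjusted p 0.00108). Its median was 1 read in mock neurons and 2 in mock supporting cells, and it was above background in 0 groups. The mean log2 value of olfactory receptor probes was itself higher in mock supporting cells, at 1.65 ± 0.0777 (SD, n = 14), than in mock neurons, at 1.41 ± 0.112 (SD, n = 16). With that mean as a covariate the value was -0.38 and did not pass (adjusted p 0.433). After noise Rab42 was at medians of 1.98 and 2.08.

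**Figure D3:**
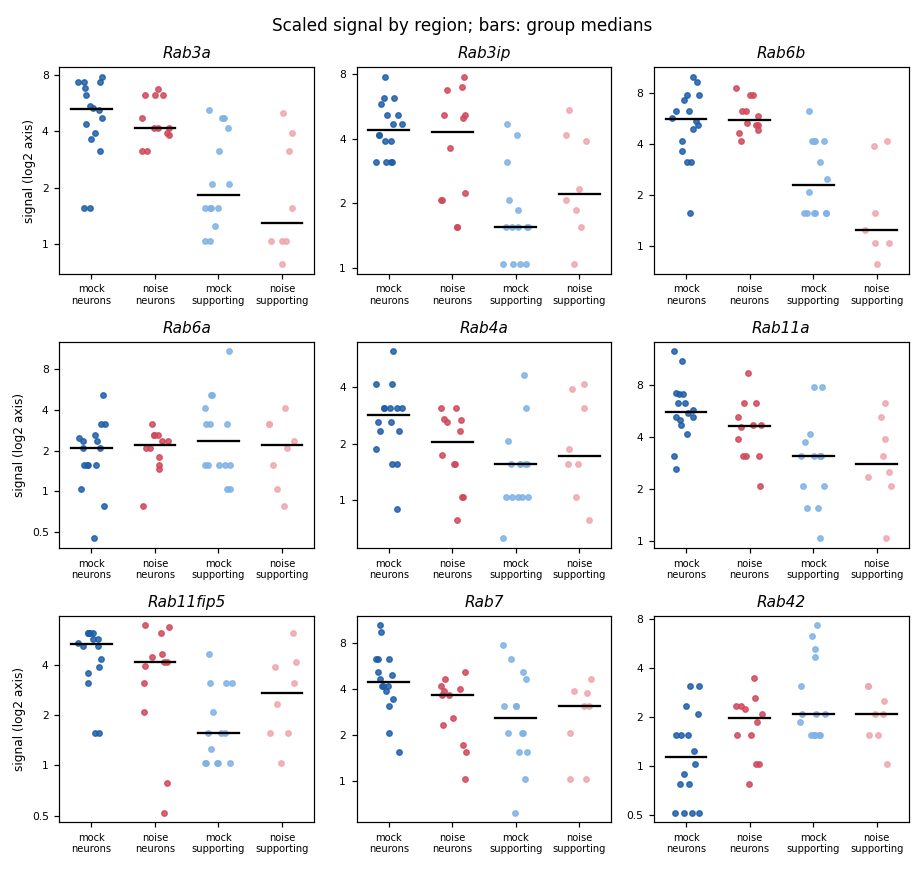
Scaled signal of 9 members in each region, on a log2 axis, by region group; points are regions and bars are group medians. Rab6b in noise neurons lies at or above 4.16, at or above every noise supporting-cell region, while Rab6a has medians between 2.08 and 2.34 in the 4 groups.

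After noise 2 of 42 members tested differed between region types, Rab6b and Rab3a, both higher in neurons. That is 4.76% of members against 8.28% of all genes, with 6.94% of all genes higher and 1.34% lower. An unadjusted p below 0.05 was reached by 4 members of 42 and 19.0% of all genes. These groups held 12 and 8 regions, against 16 and 14 under mock. That Rab11fip5, Rab3ip and Rab4a did not pass here, or that the value of Rab6b was larger, does not by itself show a difference between treatments. That difference was tested as the supporting-cell noise effect minus the neuron noise effect, over regions that outnumber animals. None of 42 members was called, against 0% of all genes tested. An unadjusted p below 0.05 was reached by 4 members of 42 and 6.12% of all genes. The values were 0.70 for Rab11fip5 (SE 0.31, adjusted p 0.695), 0.60 for Rab4a (SE 0.29, adjusted p 0.799), -0.59 for Rab42 (SE 0.29, adjusted p 0.793) and -0.57 for Rab3b (SE 0.28, adjusted p 0.799). For Rab6b the value was -0.53, with a 95% interval from -1.18 to 0.11.

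Noise against mock was compared in neuron regions to ask what the exposure changed in this family. None of the 42 members tested passed (limma, p-values over regions too small), against 0.662% of all genes tested, 0.213% higher and 0.448% lower. An unadjusted p below 0.05 was reached by 6 members of 42 and 13.5% of all genes, and edgeR on reads called 0 members. The median log2 fold change was 0.05 over members and 0.02 over all genes, with 23 members above 0 and 19 below. The largest positive values were 0.48 for Rab8b, 0.46 for Rab3b and 0.44 for Rab3gap1, and the largest negative values -0.48 for Rab7 and -0.45 for Rabggtb. Of these, Rab8b, Rab3b and Rabggtb were above background in 0 groups, so their values here and below are no measure of a level.

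Individual members were read against the spread of their regions. Rab7 ran from 1.56 to 10.4 (median 4.42) in mock neurons and from 1.04 to 5.20 (median 3.64) in noise neurons, and 11 of 12 noise regions were under the mean of mock neurons. Its fold change of -0.48 (SE 0.21) had an adjusted p of 0.278. Rabggtb, the catalytic subunit of the transferase that adds prenyl groups to Rabs, ran from 1.04 to 4.16 (median 2.26) and from 0.780 to 2.23 (median 1.56). Every noise region of Rabggtb, 12 of 12, was under the mean of mock neurons, the values overlapped, and the fold change of -0.45 (SE 0.19) had an adjusted p of 0.254. Its partner subunit Rabggta fell below the filter on low values and was not tested. Rab8b, an exocytic Rab, had medians of 1.56 in mock and 2.75 in noise neurons, with 4 of 12 noise regions above every mock region (adjusted p 0.219). Rab3b had medians of 0.988 and 2.08 and 1 noise region at 12.5 (adjusted p 0.238). In mock neurons Rab8b and Rab3b each had a median of 1 read, with 10 of 16 regions at that floor. Rab3gap1 had medians of 2.47 and 3.90, and 8 of 12 noise regions lay above the mock mean (adjusted p 0.314).

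The 7 members higher in neurons under mock had medians in mock and noise neurons of 5.27 and 4.16 (Rab3a), 5.59 and 5.58 (Rab6b), 4.42 and 4.31 (Rab3ip), 5.59 and 4.63 (Rab11a), 5.33 and 4.16 (Rab11fip5), 4.42 and 3.64 (Rab7) and 2.86 and 2.04 (Rab4a). The noise median was the lower in each, by little in Rab6b and Rab3ip. These members were picked by high mock neuron values, which are also the baseline here. That choice alone favours a lower noise median, so the shared direction is no sign of a noise effect. Of all 42 members tested 23 had a noise effect above 0 in neurons and 19 below. The noise effects were -0.04 for Rab3a, with a 95% interval from -0.45 to 0.37, and 0.13 for Rab6b, from -0.29 to 0.54. For Rab11a the effect was -0.32, with an interval from -0.74 to 0.10, and for Rab11fip5 -0.31, from -0.71 to 0.10. For Rab7 it was -0.48, from -0.89 to -0.07, and for Rab4a -0.34, from -0.73 to 0.04 (adjusted p 0.278 and 0.424, limma). For Rab3ip it was -0.23, from -0.63 to 0.18. The medians and the fitted effect of Rab6b thus differed in sign. The interval of Rab7, not adjusted for the number of genes, lies below 0, and the others, which include 0, do not show that the levels were equal. Rab7 and Rab4a were not above background in noise neurons, where the mean log2 value of Rab7 was 2.00 and the cut-off 2.03. Beside these values, the neuron marker sum had a median of 238 in mock and 188 in noise neurons and the olfactory receptor mean was 1.41 and 1.60, and the part of either in the members' values was not tested.

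**Figure D4:**
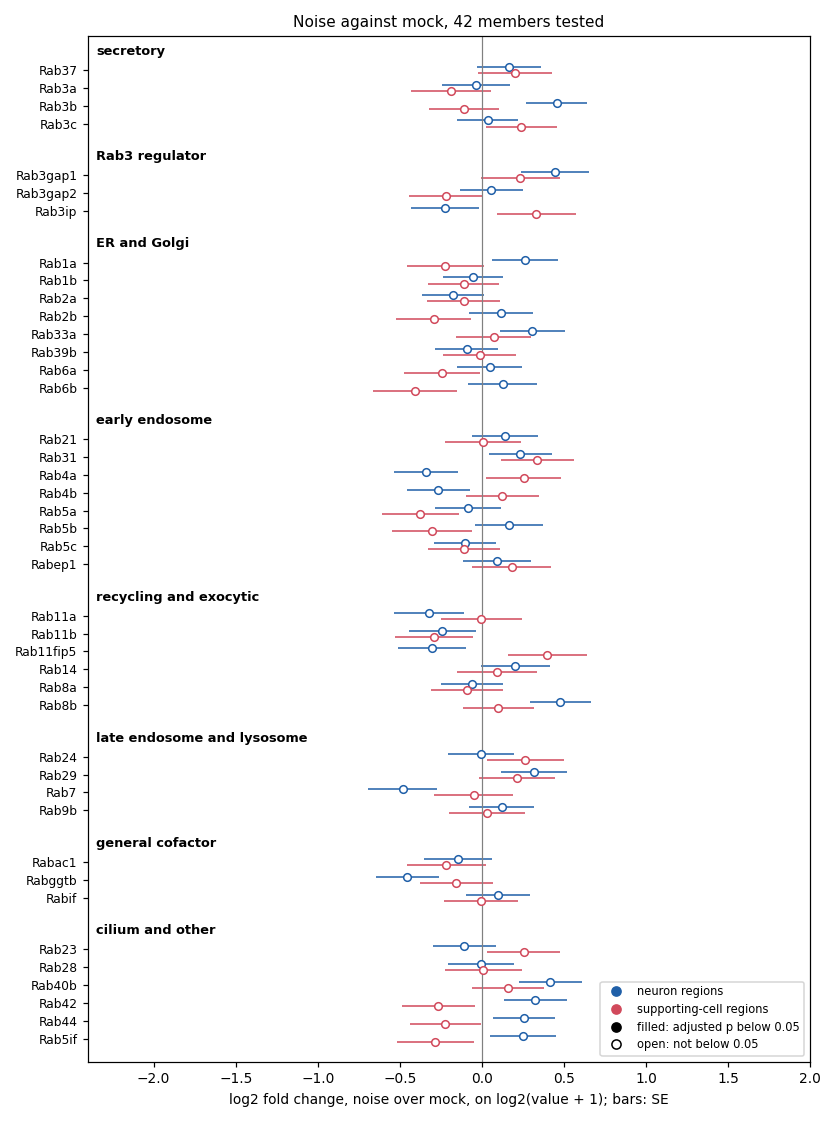
Log2 fold change of noise over mock for the 42 members tested, by role, in neuron (blue) and supporting-cell (red) regions, on the log2(value + 1) scale with SE bars; filled points would have an adjusted p below 0.05. No point is filled, and the neuron values lie between -0.48 and 0.48.

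In supporting-cell regions no member passed for noise either, over regions that outnumber animals, against 0.384% of all genes tested, 0.0640% higher and 0.320% lower. An unadjusted p below 0.05 was reached by 0 members of 42 and 10.1% of all genes, and edgeR on reads called 0 members. The median was -0.01 over members and -0.03 over all genes, with 19 above 0 and 23 below. The values ranged from -0.41 for Rab6b to 0.40 for Rab11fip5. Rab11fip5 had medians of 1.56 in mock and 2.73 in noise supporting cells, and 5 of 8 noise regions lay above the mock mean (adjusted p 0.604). Rab5a, the main Rab of early endosomes, had medians of 3.12 and 1.72, a fold change of -0.37 (SE 0.23, adjusted p 0.615). Rab6b had medians of 2.29 and 1.25 (adjusted p 0.620). The glial marker sum had a median of 131 in mock and 67.3 in noise supporting cells, and its part in these values was not tested.

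Among the general cofactors that act on many Rabs, Rabac1, which helps to place Rabs on membranes, was above background in both mock groups. It was at medians of 4.03 in mock and 3.33 in noise neurons, and of 3.12 and 2.21 in mock and noise supporting cells. Rabif, a chaperone of nucleotide-free Rabs, was at 2.08, 2.38, 1.56 and 1.82. None of the 3 cofactors tested was called in any of the 5 comparisons. Of the 16 members below the filter, group means lay between 1.26 and 2.57. Rab3il1, an exchange factor related to Rab3ip, had no value in noise supporting replicate 2, and neither did Rab6b.

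The partners of Rabs were read from a list of exchange factors, GTPase-activating proteins, effectors, dissociation inhibitors, Rab-like genes and fusion proteins. It had 82 genes with a row, 56 of them tested. Under mock 18 were higher and 1 lower in neurons (33.9%, against 20.0% of all genes tested), and after noise 9 were higher (16.1%, against 8.28%). Calls also differed with the first letter of the symbol. Under mock 35 of 88 genes tested that begin with G were higher and 8 lower. Of 605 genes that begin with S, 61 were higher and 40 lower. The part of this in the partner counts was not tested. The fusion proteins made up 12 of the 18, of 19 tested. They included the vesicle glycoprotein Sv2c, at 10.8 in mock neurons and 3.07 in mock supporting cells as means (1.63, SE 0.20, adjusted p 7.34e-14), and 16 of 16 mock neuron regions lay above every mock supporting-cell region. Of the exchange factors, 2 of 17 tested were higher (11.8%, against 13.8% of all genes). They were Madd, which acts on Rab3 and Rab27 (0.82, adjusted p 0.000351), and Dennd10 (0.69, adjusted p 0.00252). Of 7 GTPase-activating proteins Tbc1d9 was higher (0.88, adjusted p 7.42e-05), which is 14.3% against 13.8% of all genes. Of 10 effectors the motor Myo5a was higher (1.43, SE 0.20, adjusted p 6.13e-11) and its paralog Myo5b lower (-0.47, adjusted p 0.0428). That is 20.0% of effectors called in either direction, against 20.0% of all genes. The counts of exchange factors, GTPase-activating proteins and effectors were near those of all genes and say nothing particular about these classes. Myo5b passed in 16 of 30 fits with 1 region left out (adjusted p 0.0171 to 0.0900) and in 4 of 11 other settings. Myo5a was higher in the neuron region in 14 of 14 mock and 7 of 7 noise areas.

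With noise the median over the partners tested was -0.11 in neurons, against 0.02 over all genes, and -0.02 in supporting cells, against -0.03. Of 19 fusion proteins tested 17 were below 0 in neurons, with a median of -0.28, where 2171 of all 4686 genes tested were below 0. None was called by limma, against 0.662% of all genes, and 5 had an unadjusted p under 0.05, against 13.5% of all genes. Of these proteins, 2 are given as examples chosen after their values were seen. Snap25, a core protein of the fusion complex, had a value of -0.55 (SE 0.20, adjusted p 0.188), and the vesicle protein Syp one of -0.64 (SE 0.21, adjusted p 0.144). The neuron marker sum had medians of 238 and 188 in mock and noise neurons, and its part in these values was not tested. Snap25 is itself among the neuron markers, so that sum and the fusion proteins share a gene. In supporting cells 0 of 56 partners were called by limma, against 0.384% of all genes, and 8 had an unadjusted p under 0.05, against 10.1% of all genes.

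Gdi2, a GDP dissociation inhibitor, ran from 2.60 to 17.7 (median 9.36) in mock neurons and from 4.16 to 9.36 (median 7.22) in noise neurons. It ran from 1.56 to 7.80 (median 4.26) in mock and from 2.08 to 3.12 (median 3.12) in noise supporting cells. After noise all 12 neuron regions lay above all 8 supporting-cell regions. The region type difference was 1.02 (SE 0.20, adjusted p 8.39e-06) under mock and 0.96 (SE 0.25, adjusted p 0.00392) after noise. Over the 88 genes tested that begin with G, the median difference was 0.37 under mock and 0.32 after noise. The noise effect in neurons, -0.38, did not pass (adjusted p 0.413).

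**Figure D5:**
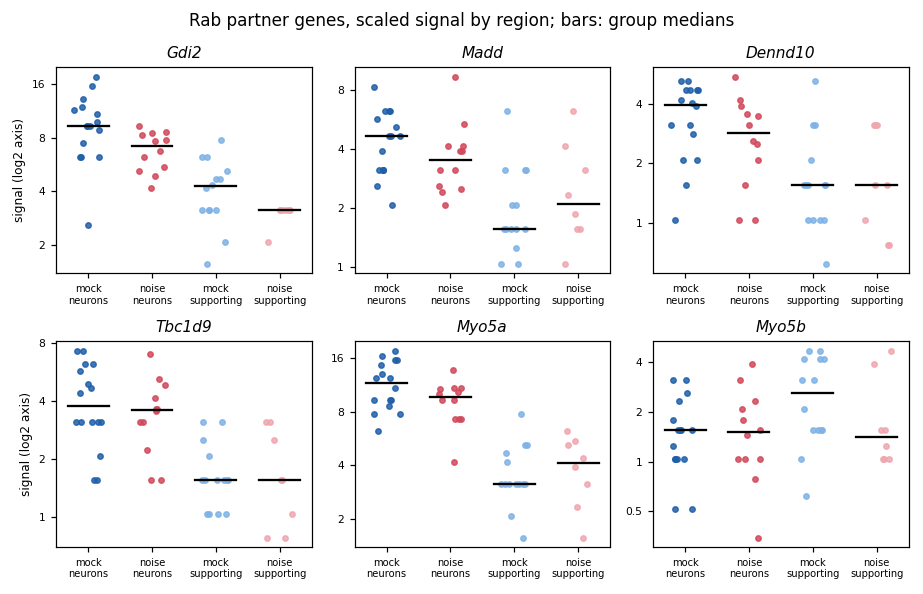
Scaled signal of 6 partner genes in each region, on a log2 axis, by region group; points are regions and bars are group medians. Gdi2 in noise neurons, at or above 4.16, lies above every noise supporting-cell region, and Myo5a has medians of 11.7 in mock neurons and 3.12 in mock supporting cells.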

How the data were processed

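GeoMx releases barcoded probes by light from selected parts of a section for sequencing; 51 cochlear regions were grouped by title. Per the file headers the authors deposited 1 file per region and 1 table, with equal values (largest difference 0). The deposited signal was scaled by the authors to an upper quartile of 3.12. Values were whole multiples of the lowest in each region (99.99% within 0.01 of a whole number), and these multiples are called reads. The lowest value, the floor, was taken as 1 read, and whether it also stands for 0 reads cannot be told. In noise neuron replicate 6 all 6248 genes were at the floor. In edgeR floor entries counted as 1 read. In all 66 entries held no number and were missing. DRAGEN and the builds mm10 and GRCm38 are named, with no role, in the submitters' processing notes; the gene filter is not given in the sources used here. The label on library preparation describes total RNA and not probes. For noise supporting replicate 8 the labels name reads of another well, and the title was followed.

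The main analysis was limma 3.58.1 in R 4.3.3 on log2(value + 1), with 4 group means over 50 regions, captured area as a random block (correlation 0.0389) and eBayes with a trend. The prior degrees of freedom were infinite, so SEs follow genes of similar mean, and a gene that varies more has too small an SE. The filter on low values kept genes from the 0.25 quantile of the mean (1.85) up, 4686 of 6248, and called at a Benjamini-Hochberg adjusted p below 0.05 within each comparison. Alternatives were no block, a replicate block, pseudocounts of 0.1 and 10, other filters, median centring, 2 background corrections, noise neuron replicate 6 kept, each region left out and edgeR 4.0.16 on reads. Tested on simulated data over 4686 genes, limma found 4.76%, 53.2% and 84.2% of changes of 0.5, 1 and 1.5 log2 for noise in neurons, with 0 false calls. For noise in supporting cells it found 1.67%, 19.7% and 53.3% (6 false calls) and for region types under mock 3.28%, 67.3% and 88.9% (9), so most changes of 0.5 would be missed. Within groups the highest correlation of deviations between 2 regions was 0.0708, and no region counted as a duplicate.

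Members and lists were chosen with earlier results of these data known. Members named are those called, the 3 largest rises and falls per comparison with a mean at or above the median of genes tested, and a list of well-known Rabs; Rab27a of that list was not analysed here, and further members were chosen after their values were seen. Promoters come from RefSeq for GRCm38.p6. P-values measure only the spread between regions, which may be technical. Some results are not reported here.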

Additional observations from a re-analysis of the deposited data

Results flagged for a closer look

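Among 56 quantities, each over the 8 noise supporting-cell regions, 7 had a region set apart from the others by its gap to the nearest value. Chance gives about 1 in 20 for normal values, and the rate for values in steps of 1 read was not computed. Rab21 was at 9.36 in replicate 1, from 12 reads, against 1.04 to 3.90 in the others. Rab5a was at 4.16 in replicate 5, from 4 reads, against 1.04 to 2.34. Rabac1 was at 9.36 in replicate 3, from 9 reads, against 1.04 to 3.12. Rabggta was at 4.68 in replicate 2, from 3 reads, against 0.780 to 2.34. Gdi2 was at 2.08 in replicate 5, from 2 reads, the lowest, with the 7 others all at 3.12. The negative probe was at 1.89 in replicate 2, against 1.24 to 1.44. Members took 0.940% of reads in replicate 1, against 0.827% to 0.867%. None of Rab21, Rab5a and Rabac1 passed in a comparison of noise with mock, and Rabggta was not tested.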

How the results depend on the processing

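The members called kept their direction under every alternative run. Under mock the count of 8 members was 5 where the olfactory receptor mean was a covariate and 5 with edgeR on reads, and 7 to 10 with 1 region left out. After noise the count of 2 was 0 with edgeR, which could not fit Rab6b for its missing entry. It was 1, Rab6b, with edgeR and noise supporting replicate 2 left out, a setting chosen after seeing the data, and 2 to 3 with 1 region left out. For noise in either region type and for the difference of effects, 0 members were called in every setting. Rab3ip, Rab11a, Rab11fip5 and Rab3a under mock passed in all 12 settings; Rab42 missed also with the negative probe subtracted (adjusted p 0.0630). Rab5b after noise passed in 4 of 12 and Rabep1 under mock in 2 of 12. The replicate block left 19 genes called for noise in neurons, against 31, and changed no call of a member that passed, while Rab5b after noise passed with it (adjusted p 0.0388). Replicate numbers share no deviations (0 of 14, 7, 12 and 8 pairs had a correlation over 0.1) and do not pair the regions. Over all genes, noise in neurons gave 47 calls with a pseudocount of 10, 102 with median centring (2 higher and 100 lower, against 10 and 21), 3 with the covariate, 7 with the negative probe subtracted, 178 with edgeR (26 higher and 152 lower) and 155 with edgeR without that region. It gave 11 to 35 with 1 region left out: 11, 12, 19 and 18 without noise neuron replicates 1, 2, 9 and 10, and 19 without mock neuron replicate 10. Noise in supporting cells, 18 calls, gave 7 with a pseudocount of 0.1, 11 with no filter, 111 with median centring (2 higher and 109 lower, against 3 and 15), 8 with edgeR and 4 with edgeR without that region. It gave 3 to 21 with 1 region left out: 11, 11, 6, 3 and 8 without noise supporting replicates 1, 4, 5, 7 and 8, and 10, 11, 11 and 8 without mock supporting replicates 6, 8, 9 and 12. The difference of effects gave 1 call with a pseudocount of 10, and 0 with any region left out. Under mock the region types gave 412 calls with the covariate (372 higher and 40 lower, against 649 and 290), and 874 to 979 with 1 region left out; after noise 301 to 418. Median centring moved the median of all genes to -0.11 and -0.20 for noise in neurons and supporting cells and to -0.17 for region types under mock, and the members' medians to -0.08, -0.18 and -0.20. The cause of these shifts was not tested. Depth limits the values: the typical member had a median of 1.25 to 3 reads by group, and the highest 4 to 9.5.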
